A study of Mus musculus with 4 samples.

Results

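Grem1 Cnmd cells are cells of the mouse tail intervertebral disc defined here by their RNA of the 4 genes Grem1, Cnmd, Sfrp5 and Frzb, of which 22 of 229 members had UMIs of all 4. They were chosen by a score, the mean over these 4 genes of the scaled log level in a cell, which had to be above 0.5 and higher than the same score for each of 6 other 4-gene panels. By that rule 229 of 2417 kept cells (9.47%) were members. A kept cell had at least 500 detected genes and under 10% of its UMIs (distinct transcript molecules) from mitochondrial genes.

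The series asked how disc cells differ after acute injury. All mice were wildtype female C57BL/6 animals, 12 weeks old. In the injured group, discs at the tail levels CC5/6 to CC9/10 were punctured on both sides with a 30G needle and taken 7 days later. The control discs came from CC12/13 to CC16/17 of the same animals and were not punctured, so that injury and tail level cannot be told apart. Discs of 6 mice were pooled to 30 discs per group, and the pooled cells were snap frozen, later thawed, and passed through a sort with the dye DAPI that kept viable cells. There were 2 rounds, each with 1 control and 1 injured library. Each library is therefore a pool. The labels do not say whether 6 mice and 30 discs were used in each round or over both, so p-values measure the spread between libraries, which may be technical.

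An intervertebral disc has a soft core, the nucleus pulposus, held in by the annulus, whose inner layers resemble cartilage and whose outer layers resemble tendon, and it borders on the vertebrae through cartilage endplates. Cartilage cells build a matrix of type II collagen and the proteoglycan aggrecan under the transcription factor SOX9. Tissues that stay cartilage express secreted antagonists of BMP and WNT signals, which otherwise drive cartilage cells toward maturation and bone.

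Grem1 encodes gremlin 1, a secreted BMP antagonist. Cnmd encodes chondromodulin, a cartilage protein that inhibits blood vessel growth. Sfrp5 and Frzb encode secreted frizzled-related proteins, which bind WNT ligands. In GRCm38 coordinates (GENCODE M21), all 4 genes lie on the minus strand: Grem1 at chr2:113746164-113758646, Cnmd at chr14:79637690-79662170, Sfrp5 at chr19:42197971-42202252 and Frzb at chr2:80411970-80447625. The 250 bases upstream of each RefSeq start (GRCm38.p6) are shown because these 4 genes define the cells. Each sequence runs 5′ to 3′ on the minus strand, and capitals mark matches on either strand. The letters searched were ACAATG, a core motif of SOX factors, then its variant with the letters ACAAAG, then the GC box with the letters GGGCGG and finally the TATA box with the letters TATAAA.

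Grem1: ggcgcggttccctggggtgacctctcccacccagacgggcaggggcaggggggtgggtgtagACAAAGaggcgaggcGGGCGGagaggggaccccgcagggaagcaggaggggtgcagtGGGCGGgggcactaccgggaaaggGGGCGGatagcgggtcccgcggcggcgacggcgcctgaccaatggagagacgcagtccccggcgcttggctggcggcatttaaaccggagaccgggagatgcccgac
Cnmd: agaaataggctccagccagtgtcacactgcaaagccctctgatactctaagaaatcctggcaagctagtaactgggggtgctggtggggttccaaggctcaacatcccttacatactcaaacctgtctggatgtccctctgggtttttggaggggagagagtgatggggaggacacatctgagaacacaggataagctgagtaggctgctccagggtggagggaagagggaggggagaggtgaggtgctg
Sfrp5: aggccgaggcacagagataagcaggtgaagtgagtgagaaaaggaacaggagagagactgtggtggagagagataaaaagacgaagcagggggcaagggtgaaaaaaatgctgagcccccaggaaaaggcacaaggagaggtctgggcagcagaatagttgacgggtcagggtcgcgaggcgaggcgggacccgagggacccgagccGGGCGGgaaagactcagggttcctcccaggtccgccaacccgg
Frzb: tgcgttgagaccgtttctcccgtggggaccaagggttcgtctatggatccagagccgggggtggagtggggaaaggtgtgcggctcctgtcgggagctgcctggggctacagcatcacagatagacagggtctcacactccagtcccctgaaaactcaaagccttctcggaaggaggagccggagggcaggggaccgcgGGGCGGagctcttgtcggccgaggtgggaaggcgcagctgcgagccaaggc

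The Grem1 window (chr2:113758649-113758898) held 1 ACAAAG match and 3 GC boxes. The Sfrp5 window (chr19:42202253-42202502) and the Frzb window (chr2:80447397-80447646) held 1 GC box each, and the Cnmd window (chr14:79662184-79662433) held none of the 4 motifs. Of 32851 mouse promoter windows of this length, 10.7% held ACAATG, 16.5% held ACAAAG, 32.7% held the GC box and 12.4% held TATAAA. A match describes the letters only.

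The levels of the 4 panel genes chose the cells and are given without a test. As UMIs of a gene per 1000000 UMIs (CPM), summed over members, Grem1 stood at 294 in control round 1 and 1135 in control round 2, and at 936 and 1268 in the injured libraries of rounds 1 and 2. Cnmd stood at 356 and 673 in control and at 560 and 814 in injured members. Sfrp5 stood at 193 and 219 against 113 and 202, and Frzb at 268 and 254 against 264 and 306. The control and injured values of Grem1, Cnmd and Frzb overlapped, and so did those of Sfrp5. Most members did not show the full panel: 76 had UMIs of 3 of its genes, 103 of 2 and 28 of 1. Grem1 was detected in 169 members, Frzb in 146, Cnmd in 139 and Sfrp5 in 96, and 101 members held Grem1 and Cnmd together.

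Member scores ran from 0.522 to 5.26 with a median of 1.67. The 2 members just inside the threshold scored 0.522 and 0.528, and the 2 cells just outside it scored 0.491 and 0.478. A further 77 cells scored above 0.5 but had a higher score for another panel. Among members, 59 also had a second panel score over 0.5: 14 of 53 in control round 1, 13 of 98 in control round 2, 9 of 22 in injured round 1 and 23 of 56 in injured round 2. Mixed panels were therefore found in a larger part of injured than of control members.

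The cartilage label was checked against 12 chondrocyte markers, all of which had UMIs in members. Their summed level was 9177 and 6824 CPM in control members and 17497 and 17088 CPM in injured members, which did not overlap. Cells scoring highest for Npy Il11 Gdf5 Cpm (Npy cells) or for Fmod Comp Prg4 M1ap (Fmod Comp cells) together held 13707 and 15211 CPM in control and 14921 and 17896 CPM in injured libraries. By this sum, control members were below those cells, and injured members were above them in round 1 and below them in round 2. Sox9 was detected in 96.1% of members and in 6.86% of cells with at least 4 of 11 macrophage markers, at median depths of 4615 and 4026.5 UMIs. With every cell thinned to 1000 UMIs, the shares were 79.0% of 229 members and 2.00% of 100 macrophage-marker cells, with no member and 2 macrophage-marker cells too shallow to be thinned. The word resting could be checked only in part: of 26 proliferation genes, 3 passed the filter on low counts.

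Markers of other cells were read in the same members. The 10 outer annulus and tendon markers summed to 696 to 1254 CPM in members of the 4 libraries, against 5083 to 15023 CPM in the Npy and Fmod Comp cells. The macrophage markers Ptprc, Adgre1, C1qa, C1qb, Tyrobp and Fcer1g were at 0 in all members, and the whole list of 11 summed to 3.91 to 29.4 CPM in control and 17.8 to 37.7 CPM in injured members. Of 8 endothelial markers, Cdh5, Kdr, Tek, Emcn, Vwf and Cldn5 were also at 0 and the other 2 had UMIs. The whole endothelial list summed to 39.2 and 3.91 CPM in control and 16.1 and 10.7 CPM in injured members. Of 9 notochordal markers, Krt8, Noto and Shh were at 0 and the other 6 had UMIs. That list summed to 716 and 413 CPM in control and 807 and 522 CPM in injured members, against 459 and 1031 CPM in control and 741 and 494 CPM in injured Npy and Fmod Comp cells, so members were above those cells in 3 of 4 libraries. Osteoblast markers summed to 1751 CPM in control round 1 against 125 CPM in control round 2 and 96.8 and 10.7 CPM in injured members, while Bglap and Bglap2 were at 0. Ibsp made up 1503 and 95.9 CPM of the control sums, and 10.8 CPM of that in injured round 1.

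The libraries differed in depth and in how they were deposited. Round 1 held 1114210 UMIs in control and 8943537 in injured discs, and round 2 held 9891258 and 16972879, and control round 1 listed 444 barcodes where the other libraries listed at least 1194644 each. In round 1, 40 of 199 kept control cells had a barcode that the injured library also held at a similar or higher depth (at least 0.3 times the UMIs), but none of the 53 control members did. No such count was made for round 2. Members had median depths of 4222 and 4615.5 UMIs in control and 8209.5 and 3778.5 UMIs in injured libraries of rounds 1 and 2, so depth did not follow injury.

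Grem1 Cnmd cells made up a much larger part of control than of injured libraries. They were 53 of 199 kept cells in control round 1 (26.6%, exact Clopper-Pearson 95% interval 20.6 to 33.3%) and 98 of 228 in control round 2 (43.0%, 36.5 to 49.7%). In injured discs they were 22 of 588 cells in round 1 (3.74%, 2.36 to 5.61%) and 56 of 1402 in round 2 (3.99%, 3.03 to 5.16%). Intervals cover counting error only. Both control libraries lay above both injured ones, and the 2 injured shares were close to each other.

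**Figure D1:**
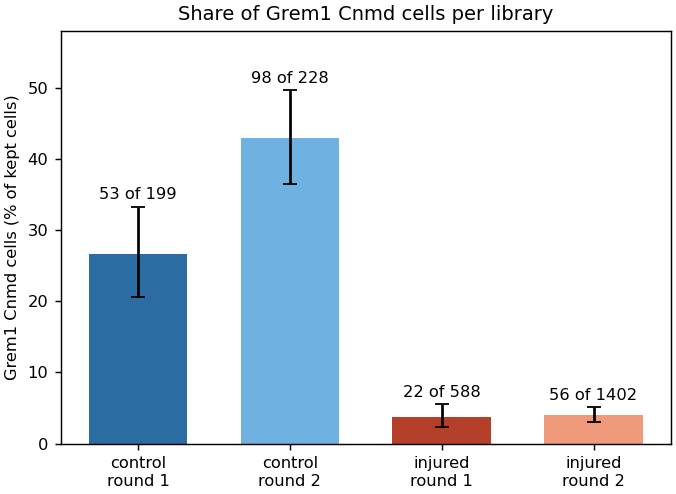
Share of Grem1 Cnmd cells among kept cells (%, bars from 0) in each library, with exact 95% binomial intervals and the number of members and kept cells above each bar. The control bars stand at 26.6% and 43.0% and the injured bars at 3.74% and 3.99%.

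The control shares averaged 34.8% ± 11.6 (SD, n = 2). The injured shares averaged 3.87% ± 0.179 (SD, n = 2), a difference of -30.9 percentage points. The exact two-sided permutation test gave p = 0.33, the smallest value that 2 libraries against 2 allow. Within rounds, the difference was -22.9 points in round 1 and -39.0 points in round 2, or a share 7.12 and 10.8 times as high in control. With cells kept from 250 detected genes on, the difference was -13.3 points, with 320 and 597 kept cells in the control libraries and 674 and 1500 in the injured ones.

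A share falls when other cells are added, so members were also set against other disc cells of the same library. There were 3.12 and 5.76 members per Npy or Fmod Comp cell in the control libraries and 0.152 and 0.136 in the injured ones. The Npy and Fmod Comp cells numbered 17 in each control library and 145 and 412 in the injured libraries of rounds 1 and 2. Against cells scoring highest for Myoc Angptl7 Lepr Ccdc3, a panel that was also a smaller part of injured libraries, there were 1.51 and 1.78 members per cell in control and 0.710 and 0.622 in injured libraries. Neither ratio overlapped between the groups. Numbers of cells per disc were not measured.

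Members were next compared with the Npy and Fmod Comp cells of the same library. The sets were chosen by expression in these same cells, so the comparison is a description with no test. Of 2862 genes at 50 CPM or more in members, 626 (21.9%) were above the Npy and Fmod Comp cells in all 4 libraries and 11 were at least 2-fold above in all 4. Of 2681 genes at that level in the other cells, 405 (15.1%) were below in all 4 libraries and 20 at least 2-fold below. These log2 ratios were taken after adding 10 CPM to both sides.

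Of 20 tested cartilage matrix genes, 6 were above the Npy and Fmod Comp cells in all 4 libraries and 3 below, against 864 above and 398 below of the 4330 genes tested in members. Col2a1, the chain of type II collagen, was below the Npy and Fmod Comp cells in all 4 libraries, with log2 ratios of -0.21 and -2.40 in control and -0.46 and -0.16 in injured libraries. Acan, the proteoglycan aggrecan, was below them in both control libraries (-0.22 and -1.33) and above them in both injured libraries (0.56 and 0.52). Chrdl2, a chordin-like BMP antagonist outside the panel, was at 42.5 and 102 CPM in control members and 118 and 359 CPM in injured members, against 0 to 9.95 CPM in the Npy and Fmod Comp cells. Its log2 ratio ran from 2.39 to 4.68. Rbp4, the retinol-binding protein, was at 797 and 1338 CPM in control and 780 and 1048 CPM in injured members, against 102 to 313 CPM in the other cells.

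Nrtn, the growth factor neurturin, had log2 ratios of 1.96 to 3.22. Col9a2, a chain of type IX collagen, was at 196 and 113 CPM in control and 96.8 and 199 CPM in injured members, against 14.0 to 63.7 CPM. Il1r1, the receptor for interleukin 1, Cpe, a carboxypeptidase that trims peptide hormones, and Fgfr3, a receptor that restrains cartilage growth, were also above the other cells in all 4 libraries. Wif1, a further secreted WNT inhibitor, stood at 804 and 745 CPM in control and 522 and 316 CPM in injured members, in every library above the other cells of that library, which were at 382, 82.1, 178 and 221 CPM in control rounds 1 and 2 and injured rounds 1 and 2.

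Genes of fibrous matrix stood lowest in members relative to these cells. Col3a1, the main chain of type III collagen, was at 13.1 to 37.7 CPM in members of the 4 libraries and at 382 to 1278 CPM in the Npy and Fmod Comp cells. Col1a1, a chain of type I collagen, was at 71.1 to 145 CPM in members and at 1544 to 8196 CPM in the others. That gap lay in the Fmod Comp cells, which held 2282 and 3770 CPM in control and 16317.5 and 13018.8 CPM in injured libraries. Npy cells alone held 90.8 and 8.66 CPM in control and 143 and 102 CPM in injured libraries, so low Col1a1 was shared with them. Of 17 tested genes of a fibrous matrix list, 10 were below the other cells in all 4 libraries and 0 above.

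**Figure D2:**
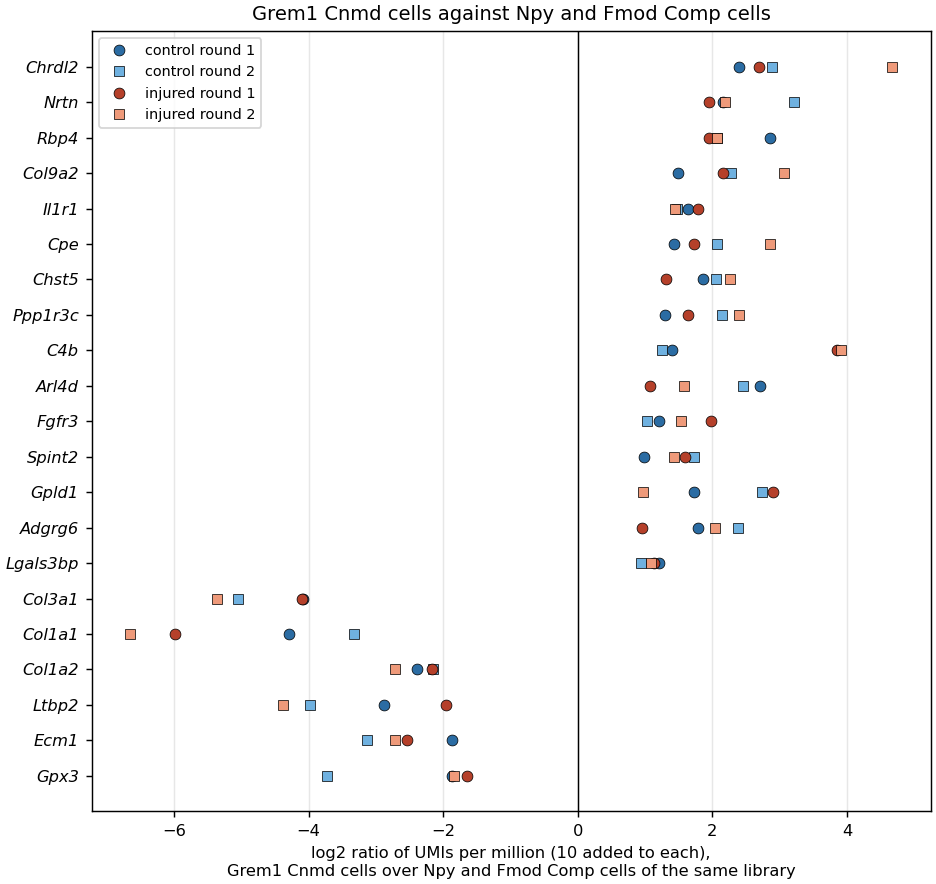
Log2 ratio of CPM, with 10 added to each, in Grem1 Cnmd cells over Npy and Fmod Comp cells of the same library, for the 15 genes outside the panels most above and the 6 most below them, ordered by the ratio nearest to 0; points are the 4 libraries. Chrdl2 leads with ratios of 2.39 to 4.68, and Col1a1 and Col3a1 lie furthest below 0.

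Injury was then compared within Grem1 Cnmd cells, on UMIs summed over the members of each library. Of 4330 genes tested outside the panels, edgeR's quasi-likelihood test with Benjamini-Hochberg adjustment called 0 (0.0%), and 108 (2.49%) had an unadjusted p under 0.05, of which 67 were higher and 41 lower in injured members. Control and injured discs of a round came from the same animals. When the model also held round as a block, 64 genes (1.48%) were called by edgeR, 43 higher (0.993%) and 21 lower (0.485%). DESeq2 without the block called 11. Leaving out 1 library, without the block, gave 5 calls without control round 1, 34 without injured round 1, 11 without control round 2 and 28 without injured round 2. Each of these fits holds a group of 1 library, which is assumed to vary like the 2 libraries of the other group. The CPM of the groups did not overlap for 1130 genes (26.1%).

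The adjusted p-values below come from edgeR with round as a block, and "rose" or "fell" is used for genes called there. With the block, 4 libraries leave little to estimate the spread of a single gene, so these p-values lean on variance shared across genes. In edgeR on all 4 libraries without the block, 0 of the 64 were called. Other fits without the block called some of them: DESeq2's Wald test called 11, edgeR without the filter on low counts 16, and edgeR on members thinned to 1000 UMIs 3 of the 31 it tested. With 1 library left out, and so 1 group without a replicate, edgeR called 4 to 21 of them. With the block, leaving out the member with the most UMIs of each gene in each library gave 54 calls, which included 47 of the 53 block calls that could still be tested. Leaving out members with a second panel score over 0.5 gave 44 calls and kept 27 of the 42 that could be tested. Of the genes named here, Chrdl2, Col11a2, Mgp, Ltbp4 and Tnfaip6 were not called without those members (edgeR adjusted p = 0.0936, 0.247, 0.0686, 0.262 and 0.412 with the block). Efemp1, given at the end, was not called there either. Genes that could not be tested without those members included C4b, F13a1, Slpi, Matn3, Apod, Fxyd2, Msmp, Add3 and Tnr. Slpi, Matn3, Fxyd2, Tnr and Cd200 had too few UMIs to be tested without their highest member. Fold changes of all 64 block calls had the same sign in every such fit that tested them.

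Several genes of cartilage matrix rose in injured members. Over all 4330 genes tested, 2083 were higher and 2247 lower. Of 28 listed genes, 20 were tested, 15 were higher and 5 lower in injured members, and their median log2 fold change was 0.83 against -0.02 over all genes tested. The median was 0.17 without injured round 2. With the block, 5 of the 20 rose and 2 fell, in a background of 1.48%.

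Col2a1 (chr15:97975602-98004695), was at 1473 and 1182 CPM in control members and 4293 and 8125 CPM in injured members of rounds 1 and 2. Both injured values were above both control values. The log2 fold change was 2.22 ± 0.45 (SE, edgeR adjusted p = 0.000139 with the block). With members thinned to 1000 UMIs, Col2a1 was detected in 30.2 and 35.7% of control members and in 54.5 and 76.8% of injured members, against 4 of 100 macrophage-marker cells. Before thinning, the shares were 54.7 and 73.5% against 90.9 and 83.9%. In round 1, 1 member held 61.6% of the Col2a1 UMIs in control and 1 held 49.9% in injured discs. All other kept cells held Col2a1 at 700 and 2188 CPM in control and 5493 and 5481 CPM in injured libraries. Barcodes with at most 100 UMIs, which hold free RNA, carried it at 1397 and 975 CPM in injured libraries and 318 CPM in control round 2. The part of free RNA in the rise was not tested.

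Acan (chr7:79053483-79115099), stood at 1343 and 1209 CPM in control and 3573 and 2810 CPM in injured members. The groups did not overlap, and Acan rose by a log2 fold change of 1.37 ± 0.41 (SE, edgeR adjusted p = 0.0466 with the block). At 1000 UMIs it was detected in 56.6 and 63.3% of control members and in 86.4 and 94.6% of injured ones. Hapln1, the link protein that fixes aggrecan to hyaluronan, stood at 258 and 327 CPM against 818 and 728 CPM, and also rose. Col11a2, a chain of type XI collagen, and Scrg1, a small secreted cartilage protein, rose as well, with log2 fold changes of 1.39 and 2.11 and edgeR adjusted p of 0.0403 and 8.36e-05 with the block.

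Cilp, cartilage intermediate layer protein (chr9:65265180-65280605), went the other way. It stood at 1395 and 2113 CPM in control members and at 382 and 423 CPM in injured members. All control values were above all injured ones, and Cilp fell by 2.05 on the log2 scale (SE 0.40, edgeR adjusted p = 7.59e-05 with the block). UMIs of Cilp came from 24 and 63 control members and 8 and 16 injured ones. Matn3, matrilin 3, also fell, but its control UMIs came from 2 members in each library. Sox9 differed by less than the spread between libraries, at 2797 and 2041 CPM in control and 2652 and 1950 CPM in injured members.

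**Figure D3:**
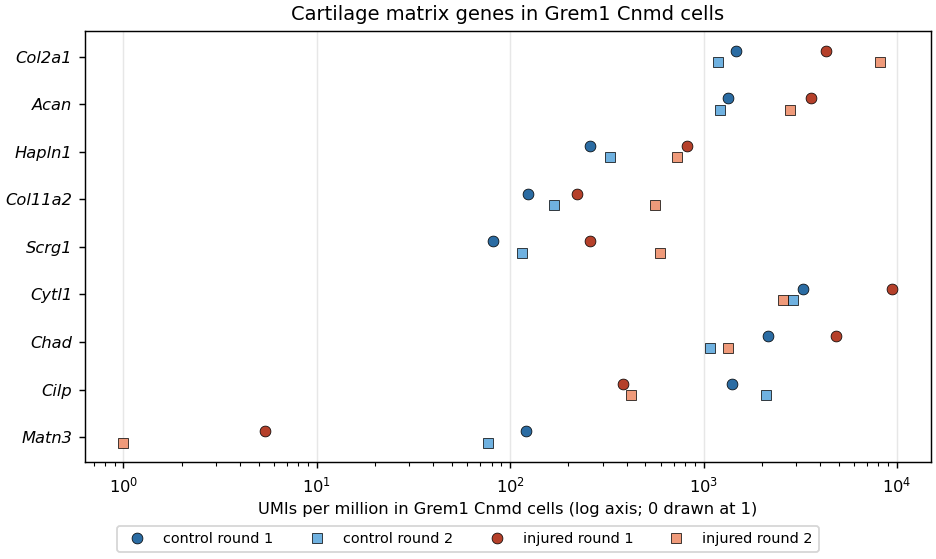
CPM in Grem1 Cnmd cells (log axis, 0 drawn at 1) for 9 cartilage matrix genes in the 4 libraries. For Col2a1, Acan, Hapln1, Col11a2 and Scrg1 both injured points lie to the right of both control points, and for Cilp and Matn3 to the left; Cytl1 overlaps between the groups and Chad does too.

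Enzymes for the sugar chains of proteoglycans were higher in 12 of 15 tested genes, with a median log2 fold change of 0.49. That median was 0.20 with members thinned to 1000 UMIs. Papss2, which makes the sulfate donor for these chains, was the 1 of the 15 that rose, against 0.993% of all genes tested, from 29.4 and 60.6 CPM in control to 91.5 and 231 CPM in injured members (log2 fold change 1.89 ± 0.45 SE, edgeR adjusted p = 0.00269 with the block). The groups did not overlap for Papss2.

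Acute-phase and antimicrobial proteins, secreted in inflammation, were higher in 6 of 6 tested genes, with a median log2 fold change of 2.04. That median was 0.80 without injured round 2, 0.98 without members that had a second panel score over 0.5, 1.07 with members scoring at least 1.0 and 1.22 without the highest member of each gene. With the block, 3 of the 6 rose, against 0.993% of all genes tested, namely Lcn2, Serpina3n and Slpi. Of the listed genes, 4 belong to the panels and were not counted.

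Lcn2, lipocalin 2, an iron-chelator-binding protein, was at 470 and 190 CPM in control and 533 and 3872 CPM in injured members, so the injured value of round 1 was close to its control and that of round 2 far above (log2 fold change 2.36 ± 0.49 SE, edgeR adjusted p = 0.000227 with the block). Barcodes with at most 100 UMIs, which hold free RNA, carried Lcn2 at 1658 CPM in injured round 1, 210 CPM in control round 2 and 447 CPM in injured round 2. In injured round 1 the member level was below that of free RNA. The part of free RNA in these differences was not tested.

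Serpina3n, a serine protease inhibitor with near-identical neighbours in its gene family, was at 19.6 and 3.91 CPM in control and 118 and 266 CPM in injured members. Slpi, another protease inhibitor, had 13.1 and 0 CPM in control and 37.7 and 515 CPM in injured members, with UMIs in 3 and 8 of the injured members. In injured round 2, 1 member held 52.4% of the Slpi UMIs. Free RNA carried Slpi at 299 CPM in injured round 1, above the member level, and at 23.2 CPM in control round 2 and 66.2 CPM in injured round 2. C4b, a complement component with a close paralogue, was at 16.3 and 13.7 CPM against 178 and 185 CPM. In injured round 1, 1 member held 75.8% of the C4b UMIs. For these 3 genes the groups did not overlap.

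Among secreted enzymes and inhibitors, Enpp2, which encodes autotaxin, the enzyme that makes lysophosphatidic acid (chr15:54838901-54952892), was at 65.3 and 33.3 CPM in control members and 473 and 409 CPM in injured members. Enpp2 did not overlap between the groups and rose by a log2 fold change of 3.28 ± 0.44 (SE, edgeR adjusted p = 1.2e-10 with the block). It was detected in 11 and 10 control members and in 15 and 26 injured members. At 1000 UMIs it was found in 9.43 and 2.04% of control and 40.9 and 16.1% of injured members, before thinning in 20.8 and 10.2% against 68.2 and 46.4%, and in 0 of 100 macrophage-marker cells. By the exact 95% interval, up to 3.62% of macrophage-marker cells could hold an Enpp2 UMI at that depth.

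Timp1, an inhibitor of matrix metalloproteinases, was at 137 and 33.3 CPM in control and 624 and 476 CPM in injured members, again without overlap (log2 fold change 2.99 ± 0.43 SE, edgeR adjusted p = 1.63e-09 with the block). Free RNA carried Timp1 at 273 and 336 CPM in the injured libraries and at 39.4 CPM in control round 2. Of 17 tested genes of the protease list, 10 were higher and 7 lower. Timp1 was the 1 of the 17 that rose, against 0.993% of all genes tested, and Timp2 and Timp3 were not called. Tgm2, a crosslinking transglutaminase, rose from 183 and 62.6 CPM to 726 and 306 CPM, and F13a1, the clotting factor transglutaminase, from 19.6 and 7.83 CPM to 140 and 114 CPM, although 1 member held 76.9% of the F13a1 UMIs in injured round 1.

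Of the fibrous matrix list, 13 of 17 tested genes were higher in injured members, with a median log2 fold change of 0.77. Fn1, fibronectin, was the 1 of the 17 that rose, against 0.993% of all genes tested, from 3496 and 2890 CPM in control to 7898 and 12310 CPM in injured members. Dcn, decorin, a collagen-binding proteoglycan, rose from 814 and 419 CPM to 5520 and 2277 CPM (log2 fold change 2.66 ± 0.42 SE, edgeR adjusted p = 1.9e-07 with the block). Neither gene overlapped between the groups.

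Both genes were also high in free RNA and in the Npy and Fmod Comp cells. Free RNA held Dcn at 1804 and 1467 CPM in the injured libraries and 821 CPM in control round 2, and the Npy and Fmod Comp cells held 10597 to 14751 CPM. For Fn1, free RNA was at 2154 and 2532 CPM against 729 CPM. Their part in the rise of Dcn and Fn1 was not tested.

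**Figure D4:**
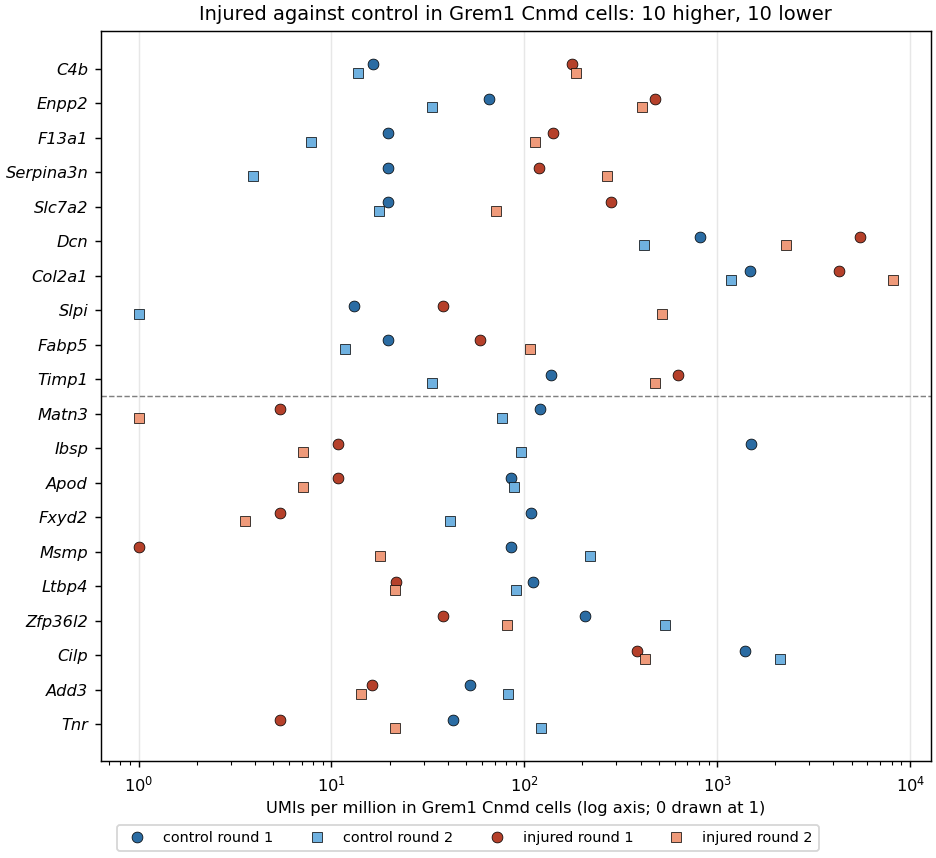
CPM in Grem1 Cnmd cells (log axis, 0 drawn at 1) for the 10 genes higher (above the dashed line) and the 10 lower in injured members with the smallest unadjusted p. Red and orange points are injured and blue points control libraries. None of the 20 genes overlaps between the groups, which their choice by small p and the same direction in both rounds made likely. Of 4330 genes tested, 26.1% did not overlap.

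Among genes lower in injured members, Apod, the lipid-binding apolipoprotein D, was at 84.9 and 88.0 CPM in control and 10.8 and 7.11 CPM in injured members. Its UMIs came from 11 and 25 control members and 2 injured members in each round. Apod fell by 3.22 on the log2 scale (SE 0.67, edgeR adjusted p = 0.000227 with the block). Zfp36l2, an RNA-binding protein that speeds mRNA decay, was at 206 and 536 CPM against 37.7 and 81.7 CPM, and fell by 2.54 (SE 0.46, edgeR adjusted p = 8.68e-06 with the block). Neither gene overlapped between the groups.

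Ibsp, bone sialoprotein, a mineral-binding protein of bone and calcifying cartilage, was at 1503 and 95.9 CPM in control and 10.8 and 7.11 CPM in injured members. Its control UMIs came from 9 and 6 members, and 1 member held 35.0% of them in round 1 and 49.0% in round 2. Ibsp fell with the block (edgeR adjusted p = 2.26e-16), while without the block its edgeR adjusted p was 0.166. Mgp, matrix Gla protein, an inhibitor of mineral deposition, also fell with the block, at 173 and 753 CPM in control against 32.3 and 153 CPM. In control round 2, 61.6% of Mgp UMIs lay in 1 member. With the block, 2 of the 7 tested genes of the hypertrophy and mineral list fell, against 0.485% of all genes tested. Of the 7, 5 were lower, with a median log2 fold change of -0.93. That median was -0.43 without injured round 2, -0.47 without control round 1 and -1.44 without injured round 1.

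Some of the remaining fallen genes rested on few cells. Fxyd2, a subunit of the sodium pump, had control UMIs in 2 members of each library. Msmp was at 84.9 and 219 CPM against 0 and 17.8 CPM, with UMIs in 6 and 17 control members. Ltbp4, a binding protein of latent TGF-beta, Add3, a cytoskeletal adducin, and Tnr, tenascin R, fell with log2 changes of -2.13, -2.11 and -2.49.

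BMP and WNT genes were listed because the defining panel holds antagonists of both pathways. Of 37 genes of the BMP and GDF pathway, 19 were tested, 8 higher and 11 lower, with a median of -0.09 that was -0.21 without control round 1 and 0.16 without control round 2. Chrdl2 was the 1 of the 19 that rose, against 0.993% of all genes tested (log2 fold change 1.75 ± 0.43 SE, edgeR adjusted p = 0.00551 with the block). Its values, given above, did not overlap. Of the WNT list, 6 of 33 genes were tested and 6 of 6 were lower, with a median of -0.63 and 0 called with or without the block. Of the 6, 0 had an unadjusted p under 0.05 without the block, and only Wif1 had one with it. Wif1, the WNT inhibitor above, had a log2 fold change of -0.88 ± 0.38 with the block (SE, edgeR unadjusted p = 0.0211, adjusted p = 0.421) and of -0.85 ± 0.55 without it (adjusted p = 1).

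Of 10 tested genes of the resting zone and skeletal stem cell list, 4 were higher and 6 lower, with a median of -0.35 that was -0.13 without control round 1 and -0.76 without injured round 1. With the block, 1 of the 10 rose and 2 fell, against 0.993% and 0.485% of all genes tested. Apoe, apolipoprotein E, was at 980 and 2019 CPM in control and 215 and 718 CPM in injured members, and fell with the block (log2 fold change -1.76 ± 0.40 SE, edgeR adjusted p = 0.00129). Gas1, a cell surface protein that modulates hedgehog signals, was at 670 and 2199 CPM against 328 and 533 CPM, and fell. Cd200, a surface glycoprotein, was at 35.9 and 5.87 CPM against 118 and 35.5 CPM, and rose. For Apoe and Gas1 the groups did not overlap, while the Cd200 value of control round 1 was level with that of injured round 2.

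In the lists of interferon response, insulin-like growth factors, TGF-beta response, secretory pathway, skeletal transcription factors and Hox genes, 0 genes were called with or without the block, and without it 1 gene each of the insulin-like growth factor, TGF-beta and secretory lists had an unadjusted p under 0.05 in edgeR. Glycolysis genes were higher in 17 of 20, with a median of 0.35 that was 0.11 without injured round 2 and turned to -0.07 with members thinned to 1000 UMIs. Immediate early and dissociation genes were lower in 18 of 25, with a median of -0.35 that was -1.27 without injured round 2 and 0.50 without control round 2. Of 12 tested genes of the inflammatory list, 5 were higher and 7 lower, with a median of -0.19 that was 0.68 without control round 1, 0.36 without injured round 1 and 0.13 without control round 2. The 1 of the 12 called with the block was Tnfaip6, a hyaluronan-binding protein induced by inflammation, which rose, against 0.993% of all genes tested. Tnfaip6 was at 258 and 99.8 CPM in control against 866 and 302 CPM in injured members.

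**Figure D5:**
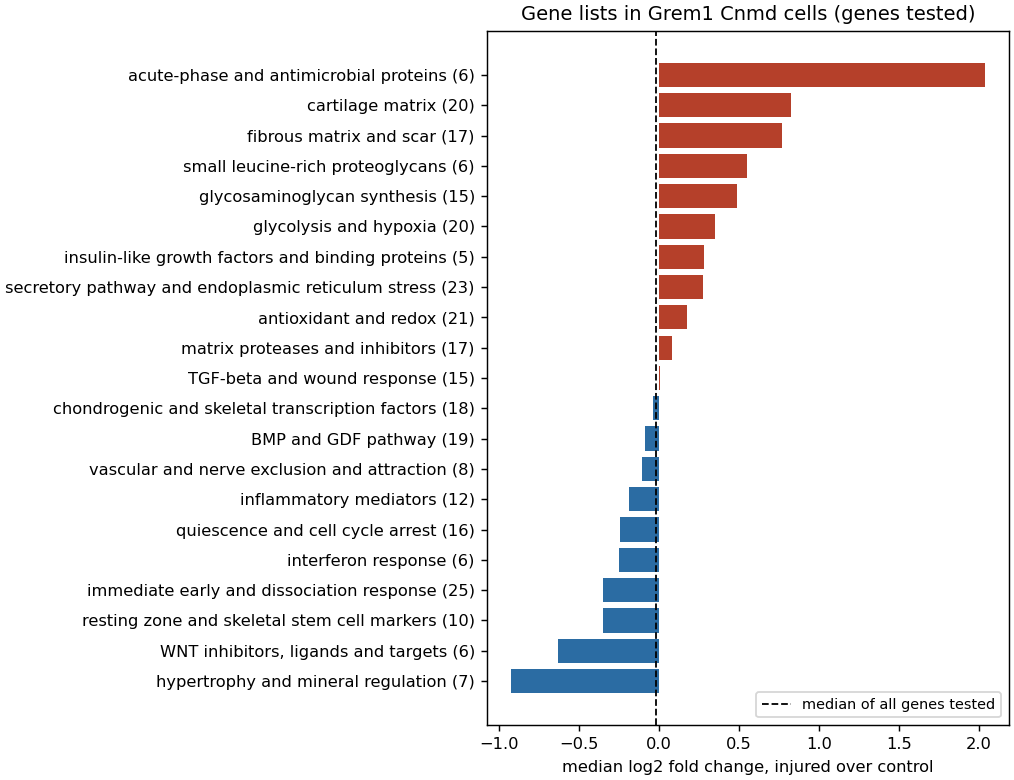
Median log2 fold change, injured over control, of the tested genes of each fixed list in Grem1 Cnmd cells, with the number of tested genes in brackets and the median of all tested genes as a dashed line. Acute-phase proteins stand at 2.04 and cartilage matrix at 0.83, and the hypertrophy and WNT lists at -0.93 and -0.63.

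Genes of the other 6 panels took part in choosing members and are given without a test. Prg4, lubricin, was at 405 and 217 CPM in control and 1829 and 1222 CPM in injured members. Chil1 was at 35.9 and 5.87 CPM against 237 and 380 CPM, and Gdf5, a BMP family growth factor, at 29.4 and 41.1 CPM against 102 and 234 CPM. These 3 did not overlap between the groups, and neither did M1ap, Nos2, Cxcl2, Saa1, Thbs4 and Myoc. The remaining genes of these panels overlapped or were at 0. Over all genes tested, 26.1% did not overlap. Myoc was at 1483 CPM in control round 1 and at 10.8 to 50.9 CPM in the other libraries.

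Whether injury changed Grem1 Cnmd cells otherwise than the Npy and Fmod Comp cells was tested as an interaction in edgeR, with library as a term. Of 5635 genes, 7 (0.124%) were called: the difference in log2 change was positive for F13a1, Enpp2 and Tppp3 and negative for Spp1, Col1a1, Ibsp and Mgp. On simulated counts the same test called 12 unchanged genes beside 80 changed ones, so single calls may be false. Over 11 alternatives, F13a1 was called in 7, Enpp2 in 6, Tppp3 in 4, Spp1 in 9, Col1a1 in 6, Ibsp in 7 and Mgp in 6. The control libraries held only 17 Npy and Fmod Comp cells each, and Enpp2 turned to -1.12 (edgeR adjusted p = 0.923) without control round 2. Mean Enpp2 was 49.3 CPM in control and 441 CPM in injured members, 26.0 and 58.7 CPM in Npy cells, and 215 and 199 CPM in Fmod Comp cells. Without 1 library the number of calls was 11 without control round 1, 3 without injured round 1, 5 without control round 2 and 4 without injured round 2. Without the library term it was 0, with 138 genes at an unadjusted p under 0.05.

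Mean levels show where these differences lay. Enpp2 averaged 49.3 CPM in control and 441 CPM in injured members, against 163 and 133 CPM in the Npy and Fmod Comp cells. Spp1, osteopontin, a secreted matrix phosphoprotein, averaged 10358 and 5368 CPM in control and injured members, against 10331 and 17396 CPM in the other cells. Col1a1 averaged 118 and 83.9 CPM in members, against 1759 and 7473 CPM. By set, Col1a1 averaged 49.7 and 123 CPM in Npy cells and 3026 and 14668 CPM in Fmod Comp cells.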

How the data were processed

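The deposited values are UMI counts of each gene in each barcode, for which the authors ran Cell Ranger against mm10 (6.0.0 for control round 1 and 4 for the other libraries), per the file headers and the submitters' processing notes. They were not normalized. Counts were read for 32285 genes in 4 libraries, and barcodes with at least 500 genes and under 10% mitochondrial UMIs were kept. UMIs were scaled to 10000 per cell and log-transformed, each gene was scaled over all kept cells, and panel scores were means over 4 genes. Members, gene lists and comparisons were chosen with earlier results of these data known. Doublets were kept, and an alternative removed cells called by Scrublet (scanpy 1.11.5), of which 7 were members; Scrublet called 0.285% of injured round 2 cells, so it did not work as a check in that library.

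Counts were summed over members per library (185863 to 511138 UMIs) and tested with edgeR 4.0.16 (quasi-likelihood, two-sided, TMM, default filter on low counts) in R 4.3.3, with Benjamini-Hochberg adjustment and a threshold of 0.05. Genes of all 7 panels were left out of counts of calls. Round pairs the libraries, since the labels place control and injured discs in the same animals; same-round deviations from the group means correlated at r = 0.53 over 4348 genes. The interaction test used summed counts of members, Npy cells and Fmod Comp cells, with library as a term. Standard errors were taken as the log2 fold change over the root of its F statistic. On simulated counts for the comparison of injury in members (3967 genes), edgeR recovered 0 of 64 genes changed 2-fold, 18.6% at 4-fold and 68.5% at 8-fold, and with the block 0, 33.9 and 75.9%. Of 3790 unchanged genes, 2 were called without the block and 6 with it. For the simulated interaction (5219 genes), 80 of 191 genes changed 8-fold were recovered and 12 unchanged genes were called.

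Genes were named by rule: the panel genes, the 10 higher and 10 lower genes with the smallest unadjusted p at a mean of 50 CPM or more and the same direction in both rounds, up to 4 of each list by level, any called gene, and the genes furthest from the Npy and Fmod Comp cells in all libraries. Mitochondrial, ribosomal, Gm and Rik genes were not named, and some further genes that met the rule, and 1 list of markers of other cells, are not reported here. Gene coordinates are from GENCODE M21 and promoter windows from RefSeq.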

Additional observations from a re-analysis of the deposited data

Results flagged for a closer look

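For 7 genes, edgeR's interaction test called a difference in the change with injury between Grem1 Cnmd cells and the Npy and Fmod Comp cells, while on simulated counts the same test called 12 unchanged genes beside 80 changed ones. The difference in log2 change was 4.33 for F13a1 (edgeR adjusted p = 0.0117), 3.12 for Enpp2 (0.013) and 2.37 for Tppp3 (0.0272), each more positive in Grem1 Cnmd cells. Over 11 alternatives the difference ran from 1.14 to 4.41 for F13a1 (edgeR adjusted p up to 0.989), from -1.12 to 3.41 for Enpp2 (up to 0.923) and from 1.81 to 3.01 for Tppp3 (up to 1.0). It was -2.82 for Spp1 (edgeR adjusted p = 3.98e-05), -3.25 for Col1a1 (0.0018), -2.97 for Mgp (0.00949) and -12.68 for Ibsp (0.0066). The Ibsp value is no measure of size, because the Npy and Fmod Comp cells of both control libraries held 0 Ibsp UMIs and the fit then depends on a small added count. Tppp3, a tubulin-binding protein, averaged 50.2 CPM in control and 214 CPM in injured members, against 220 and 154 CPM in the other cells. F13a1 averaged 13.7 and 127 CPM in members, against 189 and 90.4 CPM.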

How the results depend on the processing

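The lower share of Grem1 Cnmd cells in injured libraries kept its sign in all 15 alternatives, from -13.3 to -39.1 points. It was -24.4 with cells thinned to 1000 UMIs, -34.3 without barcodes shared in round 1, -26.2 without members that had a second panel score over 0.5, -30.9 as the mean of the within-round differences (the replicate block) and -22.8 to -39.1 with 1 library left out. The number of genes called in members rose from 0 to 64 with the replicate block, 11 with DESeq2, 26 without the filter on low counts, 3 after thinning and 5 to 34 with 1 library left out. With the block it was 54 without the highest member of each gene, 44 without members of a second panel and 71 with DESeq2 size factors; these 3 block fits and the 2 removals of members without the block, which called 0, were added after the data were seen. Of the genes called with the block, 62 were followed through these fits and 0 changed sign; uncalled genes did, such as Sox9 (log2 -0.21 to 0.22) and Chad (-0.11 to 1.61). The interaction gave 11 calls against Npy cells alone, 13 against Fmod Comp cells alone, 11 with DESeq2 size factors, 18 without the filter, 0 without the library term and 3 to 11 with 1 library left out; Enpp2 ran from -1.12, reversed, without control round 2 to 3.41 without control round 1, and the cause was not tested.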

Other observations

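Genes outside the lists also rose in injured Grem1 Cnmd cells with round as a block in edgeR. They were grouped after their values were seen. Scd1, a fatty acid desaturase, was at 26.1 and 39.1 CPM in control and 113 and 110 CPM in injured members. Idi1 and Cyp51, enzymes of cholesterol synthesis, were at 42.5 and 47.0 CPM against 124 and 124 CPM, and at 29.4 and 39.1 CPM against 96.8 and 107 CPM. None of these 3 genes overlapped between the groups. The edgeR adjusted p with the block was 0.0116 for Scd1, 0.0394 for Idi1 and 0.0424 for Cyp51. Without the highest member of each gene it was 0.0281 for Scd1, and Idi1 and Cyp51 were not called (0.38 and 0.116).

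Slurp1, a secreted protein of the Ly6 family, was at 461 and 718 CPM in control and 1921 and 1890 CPM in injured members, and Ly6a, a surface protein of that family with close relatives, at 114 and 84.1 CPM against 393 and 465 CPM. Both rose with the block (edgeR adjusted p = 0.000912 and 2.73e-05), and neither overlapped between the groups. Meltf, melanotransferrin, rose from 78.4 and 127 CPM to 409 and 355 CPM. Efemp1, a fibulin, and Chadl, a chondroadherin-like matrix protein, fell, from 114 and 143 CPM to 5.38 and 46.2 CPM and from 52.3 and 45.0 CPM to 5.38 and 3.55 CPM. Without members that had a second panel score over 0.5, Efemp1 was not called (edgeR adjusted p = 0.156 with the block).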
